A study of Homo sapiens with 30 samples.

Results

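The immediate early genes described here are FOS, FOSB, JUN, JUNB, JUND, EGR1, EGR2, EGR3, IER2 and DUSP1, 10 of the 59792 genes in the RefSeq table of the assembly GRCh38.p14. They were taken as a listed set, and every H3K4me3 or H3K27ac peak inside one of them or within 5 kb of it was used. That gave 32 peaks: the H3K4me3 set supplied 13 of its 21268 and the H3K27ac set 19 of its 63580. H3K4me3 (trimethylation of lysine 4 of histone H3) marks the starts of genes, and H3K27ac (acetylation of lysine 27) marks active promoters and enhancers.

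The peaks come from chromatin immunoprecipitation followed by sequencing (ChIP-seq) in OCI-Ly1, an established human diffuse large B-cell lymphoma line grown in culture. Cells received 0.01% DMSO, the vehicle, or JIB-04 at 150 nM or 500 nM. JIB-04 is a small molecule known as an inhibitor of Jumonji histone demethylases, the enzyme family that includes the erasers of H3K4me3. Each mark was measured in 2 libraries per group, and the study also holds input, H3K9me2 and H3K9me3 libraries that were not analysed here. The time of exposure is not given in the sources used here. Nothing in the labels says that the 2 libraries of a group came from separate cultures, so p-values measure only the spread between these libraries. All groups are 1 cell line, and the transcripts of these genes were not measured in these libraries.

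Immediate early genes are switched on within minutes of a signal, without new protein synthesis. FOS and JUN proteins pair through leucine zippers to form the transcription factor AP-1, the EGR proteins are zinc finger factors that bind GC-rich sites, and both families are induced through MAP kinases, serum response factor and CREB. In B cells they respond to antigen receptor signalling. DUSP1 is a phosphatase that switches MAP kinases off again, and IER2 is a short early response protein.

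The sequences upstream of 5 of the starts are shown because the H3K4me3 peaks over these starts had the largest absolute changes at 500 nM that passed the test, among the genes whose start sequence is shown here. They are RefSeq sequences of GRCh38.p14, read 5′ to 3′ in the direction of transcription and ending at the base before the annotated start. Capitals mark the CArG box (the binding motif of serum response factor), the CRE core (TGACG) and the full CRE (TGACGTCA) of CREB and the TATA box (TATAAA), on either strand. The FOS sequence is chr14:75278678-75278827, plus strand. The EGR2 sequence is chr10:62816367-62816516, minus strand, and belongs to the innermost of 3 annotated EGR2 starts. The EGR2 H3K4me3 peak covers this start and the next one, and the H3K27ac peak overlaps the upstream sequence shown but begins short of the start itself. The FOSB sequence is chr19:45467846-45467995, plus strand. The JUND sequence is chr19:18281623-18281872, minus strand, and is longer than the others so that its full CRE is shown. The EGR1 sequence is chr5:138465329-138465478, plus strand.
FOS: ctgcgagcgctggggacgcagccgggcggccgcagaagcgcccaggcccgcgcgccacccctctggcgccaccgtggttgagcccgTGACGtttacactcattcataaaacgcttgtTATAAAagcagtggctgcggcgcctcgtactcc
EGR2: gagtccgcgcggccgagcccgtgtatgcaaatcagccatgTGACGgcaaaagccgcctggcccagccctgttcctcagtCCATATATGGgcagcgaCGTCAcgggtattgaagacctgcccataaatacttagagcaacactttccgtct
FOSB: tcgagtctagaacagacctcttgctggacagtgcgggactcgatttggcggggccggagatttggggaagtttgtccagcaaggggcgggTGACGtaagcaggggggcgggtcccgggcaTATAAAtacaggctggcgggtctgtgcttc
JUND: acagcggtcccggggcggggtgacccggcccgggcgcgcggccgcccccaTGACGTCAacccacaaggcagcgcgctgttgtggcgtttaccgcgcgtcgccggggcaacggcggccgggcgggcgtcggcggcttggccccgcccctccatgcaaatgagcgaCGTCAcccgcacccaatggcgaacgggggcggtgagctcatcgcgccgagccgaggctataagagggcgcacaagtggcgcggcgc
EGR1: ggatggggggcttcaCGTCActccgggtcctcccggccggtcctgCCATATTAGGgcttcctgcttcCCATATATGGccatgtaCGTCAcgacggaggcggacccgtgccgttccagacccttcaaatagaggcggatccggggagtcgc

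The window searched for motifs ran from 250 bases before to 50 bases after each start, and 9 of the 10 genes had one. EGR2 had 3 windows, and a gene was counted when any of its windows matched, while the shares over all promoters are per window. The CRE core was found in all 9 of these genes, against 24.55% of the 35116 RefSeq promoter windows of the same length. In EGR2 it was only in the window of the innermost start. The CArG box was found in EGR1, with 2 matches, and in EGR2, with 1, against 1.29% of all windows. The full CRE, which contains the CRE core on each strand, was found in JUND and DUSP1, against 1.85% of all windows. FOS, FOSB, JUNB and DUSP1 held the TATA box, against 11.53% of all windows. The EGR site (GCGNGGGCG) was found in EGR1, farther upstream than shown, and in another EGR2 window, against 9.43%. No window held the AP-1 site TGANTCA, which 7.71% of all windows held. The SP1 box (GGGCGG) was found in 7 of the 9 genes, against 44.95%, and the CCAAT box (CCAAT) in 3, against 34.61%. These 2 motifs are not capitalised above. A match is a string of letters and not a measured binding site, and its absence says only that these letters are not in this window.

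**Figure D1:**
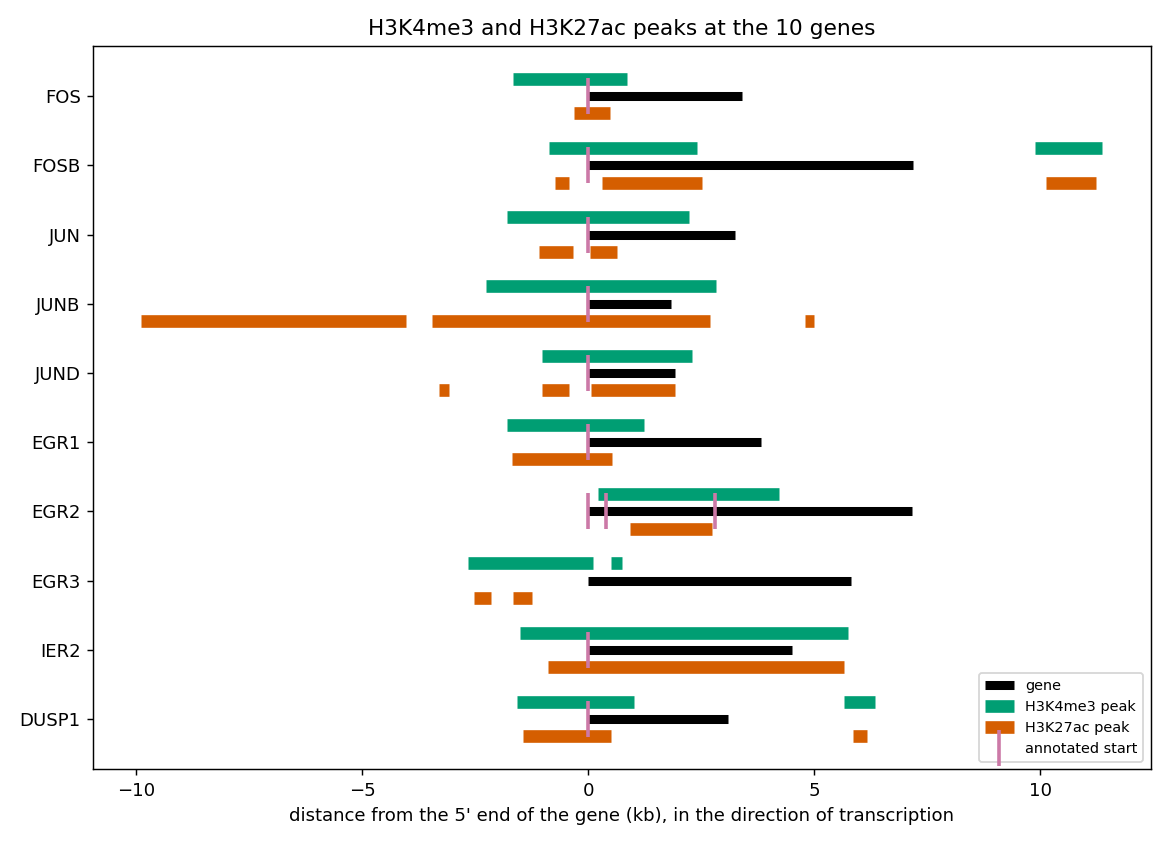
Peaks of H3K4me3 (green) and H3K27ac (orange) at the 10 genes, with the gene in black and the annotated start or starts as pink ticks, against the distance in kb from the 5′ end of the gene in the direction of transcription. A H3K4me3 peak lies over an end or start of every gene, and the starts of FOSB, JUN and JUND lie between 2 H3K27ac peaks (EGR3, whose strand the tables do not give, is drawn from its higher coordinate).

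In DMSO all 10 genes carried H3K4me3 at a start, or for EGR3, which has no RefSeq promoter window here, at the gene end. IER2 had the widest of these peaks, 7251 bp at chr19:13148911-13156161, wider than 99.6% of all H3K4me3 peaks, whose median width was 1566 bp. The peaks over JUNB (5076 bp), JUN (4017 bp) and EGR2 (4017 bp) were also broad. The start peaks of JUNB and IER2 in both marks also overlap the promoters of the neighbouring genes HOOK2 and STX10. That of JUN in H3K4me3 overlaps the promoter of the neighbouring JUN-DT, and that of DUSP1 in both marks overlaps LOC105377730. Reads there cannot be assigned to 1 gene of the pair. The JUND peak also overlaps MIR3188 and LOC124904652, and the EGR3 peak overlaps LOC105379321.

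Levels are in CPM, counts per 1000000 reads in tested peaks after TMM scaling, and here they are divided by the peak's length so that genes can be compared. EGR1 had the highest H3K4me3 level per kb in DMSO, 39.7 ± 1.54 CPM per kb (SD, n = 2). IER2 followed at 37.7 ± 0.339 CPM per kb (n = 2) and JUNB at 35.1 ± 0.473 (n = 2). The order went on with DUSP1 (30.8), JUND (26.4), FOSB (25.8), JUN (25.7) and EGR2 (15.6 CPM per kb). EGR3, at 7.02 ± 0.656 CPM per kb, and FOS, at 5 ± 0.583 (both n = 2), were lowest. FOSB and JUN were the only neighbours in this order whose libraries overlapped. FOS is the prototype of the group, and its level per kb over all libraries was at or above that of only 34.8% of tested H3K4me3 peaks.

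H3K27ac followed another order in DMSO, taking 1 peak per gene: the one that overlaps the window around a start or, where there is none, the member peak with the highest DMSO level in CPM. Among these the JUNB peak was highest at 22.8 ± 0.675 CPM per kb (n = 2), and the libraries of IER2, JUND and EGR1, which came next, overlapped. FOS at 8.77 ± 0.274 CPM per kb and EGR3 at 3.32 ± 0.678 (both n = 2) were again lowest. Peaks beside the genes reached as much, with 25.8 CPM per kb at the first JUNB peak and 22.2 at the FOSB peak beyond the 3′ end. The EGR3 peaks were 2 small ones beside the gene, with means of 1.41 and 1.28 CPM and 5 to 7 reads in each DMSO library.

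The identity of the cells was checked on marker genes. The 4 B-cell genes reported (CD79A, CD79B, MS4A1 and PAX5) each had a H3K4me3 peak inside or within 5 kb, with a highest peak of 118 to 470 CPM. Of 6 genes of other cell types, CD8A (32.1 CPM) and CD14 (13.1 CPM) had one, and CD3E, LYZ, ALB and INS had none. The summed H3K4me3 of the B-cell genes was 1138 and 1107 CPM in DMSO, 1139 and 1116 at 150 nM, then 1021 and 1008 at 500 nM, and that of the other genes was 46.2 and 45, 41.5 and 44, and 52.8 and 53.2 CPM. CD14 was the only one of these other genes with a change that passed the test at 500 nM (log2 fold change 0.67, SE 0.125, edgeR adjusted p = 1.59e-05). Of the 8 tested H3K4me3 peaks of the B-cell genes, 4 were called lower at 500 nM, over CD79A, CD79B and PAX5, and 0 higher. Of all tested H3K4me3 peaks 18.7% were called lower and 20.7% higher. The part of these shifts in the results below was not tested. Total counts in peaks were 9686420 to 12327122 per H3K4me3 library and 4360660 to 5410292 per H3K27ac library. The H3K27ac libraries DMSO replicate 2 and 150 nM replicate 2 stood apart in their reads on 5 unplaced contigs, with 71.5 and 45.9 of every 1000000 reads in peaks against 322.1 to 446 in the other 4. The 2 H3K4me3 libraries at 150 nM differed by no more than sampling noise (chi-square per degree of freedom 0.941, against 1.118 within DMSO and 1.209 within 500 nM). A pair of libraries from different groups, DMSO replicate 1 and 150 nM replicate 1, was as close (0.962), so all were kept as separate samples.

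The central comparison asks how the marks at these genes stood after 500 nM JIB-04 against DMSO. H3K4me3 rose at 7 of the 12 tested peaks and fell at 1, over 8 of the 10 genes. FOS changed most, with 2.26-fold higher H3K4me3, followed by EGR3 (1.54-fold), the peak beyond the end of DUSP1 (1.45-fold), EGR2 (1.31-fold), FOSB (1.22-fold), EGR1 and IER2 (1.09-fold each). JUND, a subunit that many cells express without a stimulus, fell to 0.839 of its DMSO level. JUN, JUNB, the DUSP1 start and the second FOSB peak did not pass the test. Among all 20402 tested H3K4me3 peaks 20.7% were called higher and 18.7% lower (4215 and 3819), so a call at any single peak was common. With total-count scaling these counts were 4767 and 2791. The median log2 fold change was 0.13 over the 12 peaks and −0.01 over all tested peaks. A peak is called where edgeR's quasi-likelihood test on the counts gives a Benjamini-Hochberg adjusted p under 0.05 over all tested peaks of the mark.

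**Figure D2:**
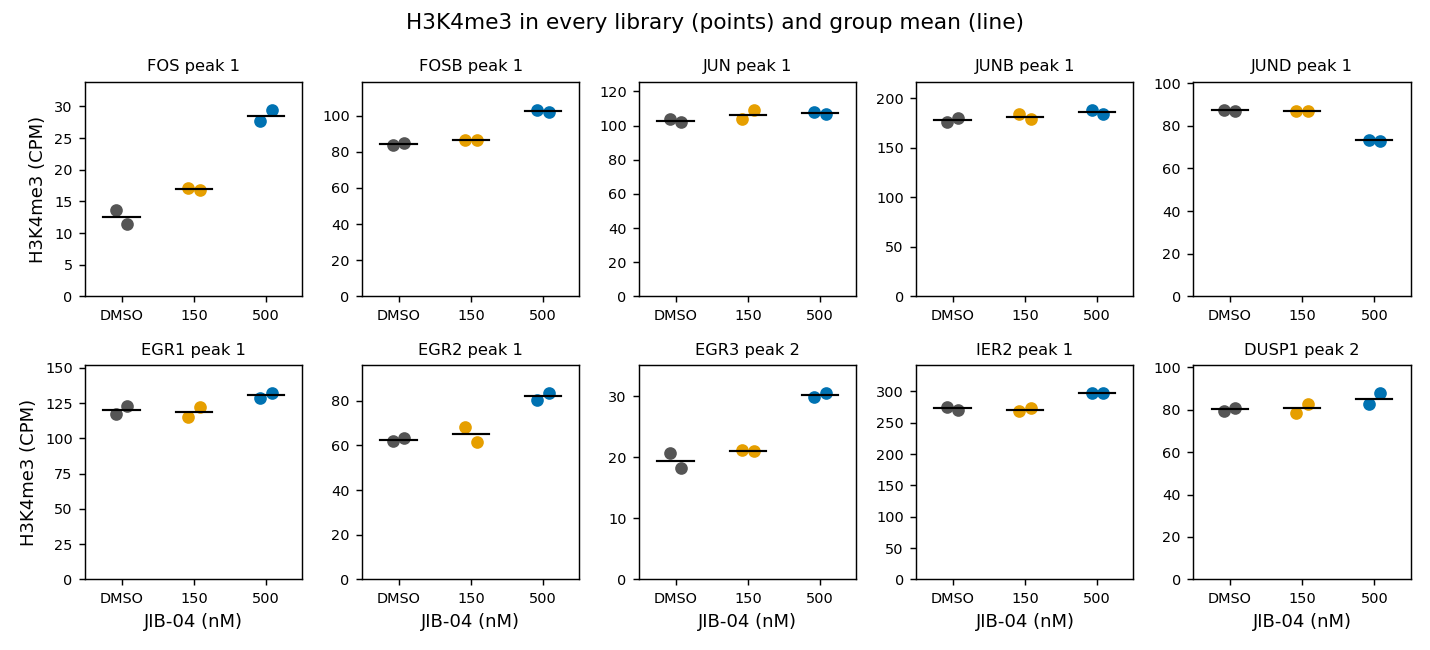
H3K4me3 level (CPM, axis from 0) of the start peak of each gene, or the gene-end peak for EGR3, in every library by JIB-04 dose (nM), with group means as lines. FOS, FOSB, EGR2 and EGR3 at 500 nM lie above all DMSO and 150 nM libraries, and JUND lies below them.

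FOS encodes the AP-1 subunit that gave the family its name. Its single H3K4me3 peak (chr14:75277178-75279680) spans the start shown above. It measured 13.6 and 11.5 CPM in DMSO, 17.1 and 16.8 at 150 nM, then 27.7 and 29.4 at 500 nM. The 3 groups did not overlap, and their order followed the dose. The log2 fold change at 500 nM was 1.18 (SE 0.101, edgeR adjusted p = 7.94e-15).

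FOSB is the FOS relative that accumulates on repeated stimulation. Its start peak (chr19:45467140-45470402) measured 83.9 and 84.7 CPM in DMSO, 86.4 and 86.5 at 150 nM, then 103 and 102 at 500 nM. The 500 nM libraries stood clear of the other 4 (log2 fold change 0.28, SE 0.043, edgeR adjusted p = 2.2e-07). A second peak beyond the 3′ end of FOSB, over the selenocysteine tRNA gene TRU-TCA1-1 (chr19:45477890-45479373), measured 24.9 and 24 CPM in DMSO and 24.6 and 21.5 at 500 nM. Those libraries overlapped (log2 fold change −0.08, SE 0.089, edgeR adjusted p = 0.515).

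JUN and JUNB, the dimer partners of FOS proteins, moved little. JUN (chr1:58781813-58785829) measured 104 and 102 CPM in DMSO, 104 and 109 at 150 nM, then 108 and 107 at 500 nM. Its 500 nM libraries were above those of DMSO but not above both at 150 nM, and the log2 fold change of 0.06 (95% interval −0.02 to 0.14) had an edgeR adjusted p of 0.251. JUNB (chr19:12789240-12794315) measured 176 and 180 CPM in DMSO, 184 and 179 at 150 nM, then 188 and 184 at 500 nM. Both 500 nM libraries were at or above all the others, with a log2 fold change of 0.06 (95% interval 0 to 0.13, edgeR adjusted p = 0.122). Both intervals exclude a rise as large as that of FOSB. Both calls depended on the scaling, and that of JUNB also on the filter. With loess offsets the edgeR adjusted p was 0.0191 for JUN and 0.000437 for JUNB. JUNB also passed with total-count scaling (0.0115) and with only peaks of a mean count of at least 50 (0.0337).

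JUND went the other way. Its peak (chr19:18279328-18282633) measured 87.3 and 87.1 CPM in DMSO, 86.9 and 86.9 at 150 nM, then 73.5 and 72.8 at 500 nM. The DMSO and 150 nM libraries were level, and both 500 nM libraries were lower than all of them. H3K4me3 fell by 0.25 on the log2 scale (SE 0.046, edgeR adjusted p = 9.54e-06).

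The 3 EGR genes all rose. EGR1, the most studied of them, had its peak at chr5:138463693-138466709, with 117 and 123 CPM in DMSO, 115 and 122 at 150 nM, then 129 and 132 at 500 nM. Both 500 nM libraries lay above the other 4, by little more than the 2 DMSO libraries differed (log2 fold change 0.13, SE 0.04, edgeR adjusted p = 0.00723). It did not pass the test without DMSO replicate 1 (0.08, adjusted p = 0.196), without 500 nM replicate 2 (adjusted p = 0.0528) or with DESeq2 (adjusted p = 0.176).

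EGR2 is mutated in some B-cell leukaemias and acts in lymphocytes beside EGR3. Its peak (chr10:62814934-62818950) measured 62.1 and 63.1 CPM in DMSO, 68.4 and 61.4 at 150 nM, then 80.5 and 83.3 at 500 nM. The 150 nM libraries straddled those of DMSO, and the 500 nM libraries stood above all 4 (log2 fold change 0.39, SE 0.051, edgeR adjusted p = 5.18e-09). EGR3 had a peak over the gene end (chr8:22693371-22696143) with 20.7 and 18.2 CPM in DMSO, 21.2 and 21 at 150 nM, then 29.9 and 30.5 at 500 nM. The groups did not overlap and followed the dose, as at FOS and the FOSB start. The log2 fold change was 0.63 at 500 nM (SE 0.087, edgeR adjusted p = 2.86e-08), but only 0.11 at 150 nM (SE 0.095), which did not pass the test. A second EGR3 peak of 250 bp inside the gene had 1 and 3 reads in DMSO, 1 and 1 at 150 nM, then 10 and 12 at 500 nM. It was too low for the test as reported and is the only member peak that was not tested there. Without a filter on low counts it was called higher (log2 fold change 2.44, edgeR adjusted p = 0.00626), as it was in 4 of the fits that left out 1 library.

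IER2 stood next to EGR1 in H3K4me3 level per kb. Its peak measured 275 and 271 CPM in DMSO, 269 and 273 at 150 nM, then 297 and 297 at 500 nM. The rise was small but larger than the spread within any group (log2 fold change 0.12, SE 0.028, edgeR adjusted p = 0.000313). DUSP1 had a start peak (chr5:172770173-172772775) with 79.2 and 81 CPM in DMSO, 78.6 and 82.8 at 150 nM, then 82.7 and 87.7 at 500 nM. The 500 nM libraries were above those of DMSO but not above both at 150 nM, and the change did not pass the test (log2 fold change 0.09, SE 0.047, edgeR adjusted p = 0.139), except with total-count scaling (0.12, adjusted p = 0.034) or loess offsets (0.14, adjusted p = 0.0175).

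The other DUSP1 peak, 2552 bp beyond the 3′ end of the gene (chr5:172764855-172765544), was low. It measured 4.9 and 5.8 CPM in DMSO, 6.72 and 5.12 at 150 nM, then 8.16 and 7.15 at 500 nM. Both 500 nM libraries were highest (log2 fold change 0.54, SE 0.185, edgeR adjusted p = 0.0176), but the call was lost without DMSO replicate 1 (adjusted p = 0.169), without 500 nM replicate 1 (0.162), with loess offsets (0.161) and with DESeq2 (0.218). FOS, FOSB, EGR2, EGR3, IER2 and JUND were called in the same direction under each of the 14 alternatives tried for their peaks, with log2 fold changes of 1.07 to 1.31 for FOS, 0.54 to 0.73 for EGR3, 0.36 to 0.43 for EGR2, 0.27 to 0.34 for FOSB, 0.11 to 0.21 for IER2 and −0.26 to −0.20 for JUND.

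**Figure D3:**
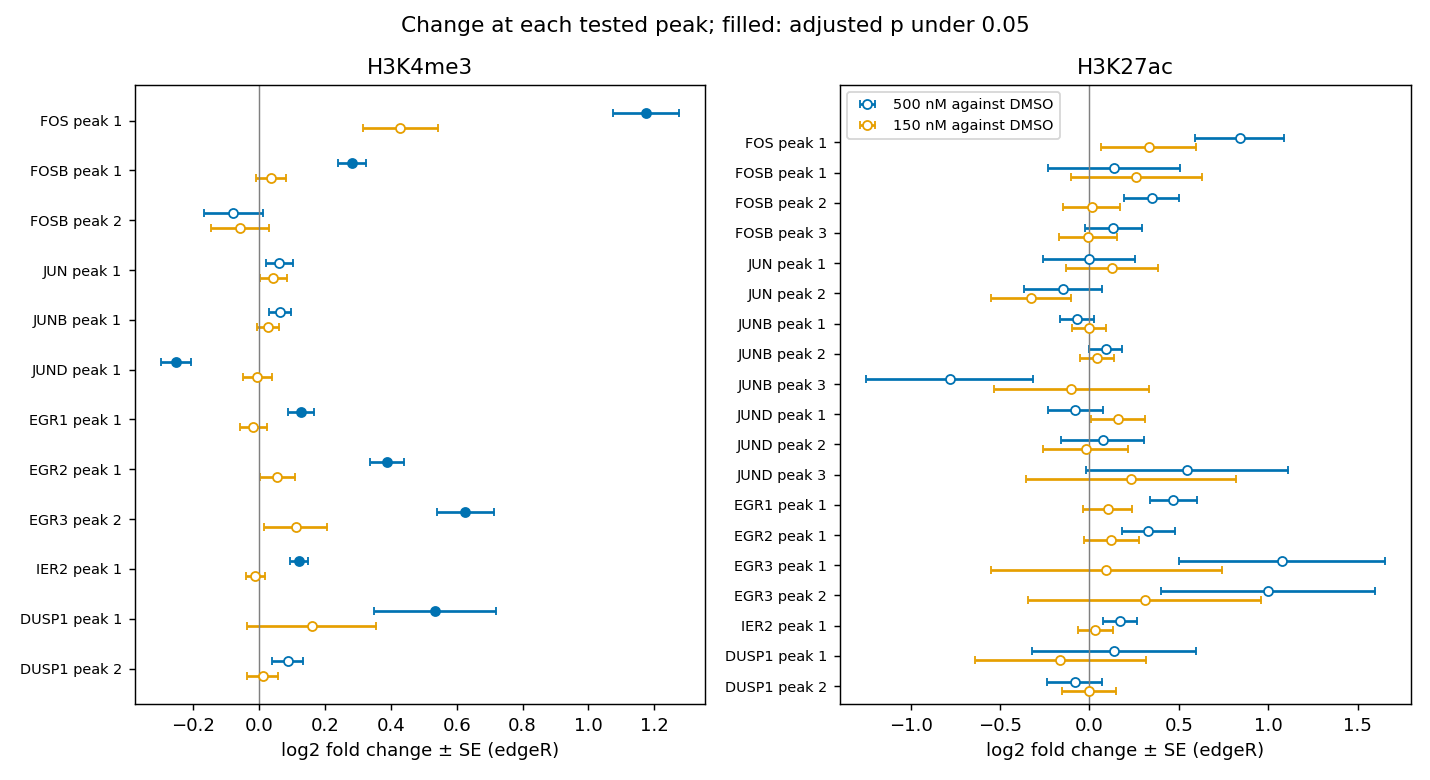
log2 fold change with its SE (edgeR) at each tested peak of the 10 genes, for 500 nM (blue) and 150 nM (orange) against DMSO, with H3K4me3 on the left and H3K27ac on the right on different axes. Filled points have an adjusted p under 0.05, and they appear only for H3K4me3 at 500 nM, at 8 peaks.

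The size of the change went with the level of the peak across the whole data set, so the members were set beside peaks of like abundance. All tested H3K4me3 peaks were ordered by abundance in 5 bins of equal size. The median log2 fold change at 500 nM went from 0.44 in bin 1, the lowest, to −0.06 in bin 5. The share called higher was 26.1%, 34.1%, 29.1%, 9.22% and 4.8% in bins 1 to 5. The share called lower was 4.58%, 12.8%, 19.3%, 22.7% and 34.2%. Of the 12 member peaks 8 lay in the upper 2 bins. EGR2 and FOSB were called higher in bin 4, and EGR1 and IER2 in bin 5. FOS and EGR3 were called higher in bin 3, at 1.16 and 0.61 above its median. The DUSP1 peak beyond the end was called higher in bin 2, at 0.33 above its median. In all, 10 of the 12 peaks were above the median of their bin. JUND, called lower in bin 4, was 0.21 below its own.

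**Figure D4:**
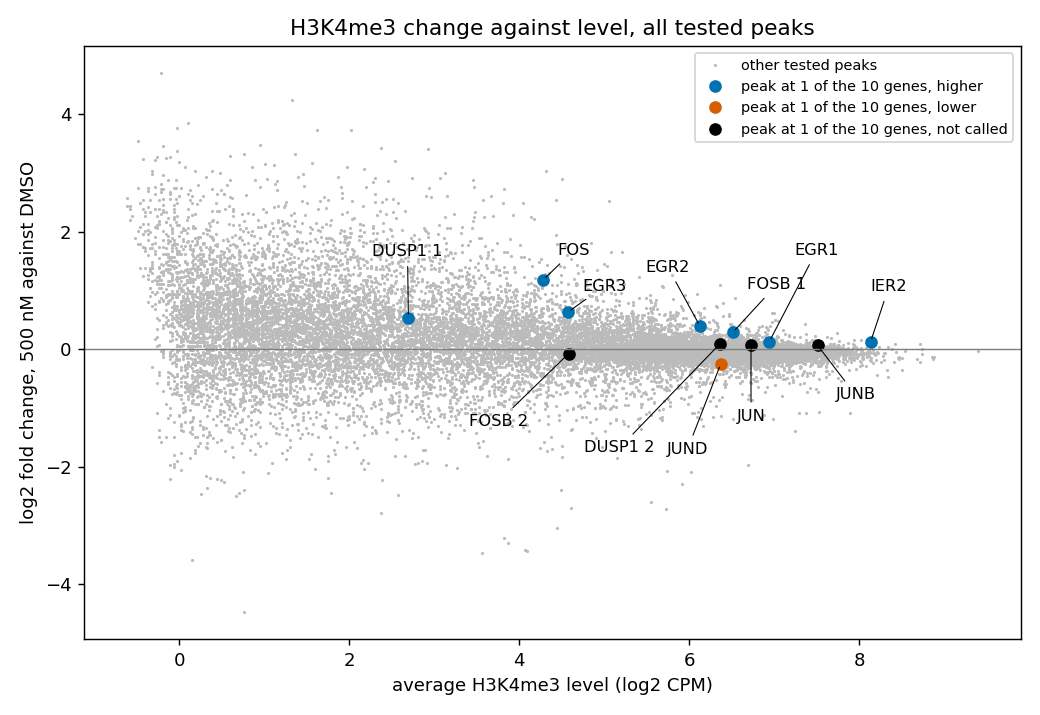
log2 fold change of H3K4me3 at 500 nM against DMSO plotted against the average level (log2 CPM) for all 20402 tested peaks (grey), with the 12 tested peaks of the 10 genes coloured by their call. Among these 12, FOS lies farthest above the grey points of like level, and JUND is the only member called lower.

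At 150 nM none of the 12 H3K4me3 peaks was called by edgeR or DESeq2, and edgeR called 0% of all tested peaks. FOS alone had an unadjusted p under 0.05 (log2 fold change 0.43, SE 0.114, edgeR adjusted p = 0.727), and 4.66% of all peaks had one. Both 150 nM libraries were above both DMSO libraries at 3 of the 12 peaks (FOS, the FOSB start and EGR3), against 17.2% of all tested peaks. They were below both at 1 (JUND), against 16.8%. At the 11 peaks other than FOS the log2 fold changes ran from −0.06 (FOSB, second peak) to 0.16 (DUSP1, peak beyond the end).

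Between the 2 doses, H3K4me3 was higher at 500 nM than at 150 nM at 6 of the 12 peaks and lower at 1, where 20.5% and 18.6% of all tested peaks were. This comparison shares its 500 nM libraries with the one against DMSO. The log2 difference was 0.75 for FOS (SE 0.095, edgeR adjusted p = 2.8e-09), 0.52 for EGR3 (SE 0.086), 0.33 for EGR2 (SE 0.051) and 0.25 for FOSB (SE 0.043). EGR1 (0.15, SE 0.04) and IER2 (0.13, SE 0.028) were also called, the former not without 150 nM replicate 1 (edgeR adjusted p = 0.149) or with DESeq2 (adjusted p = 0.113). JUND was lower at the higher dose by nearly the amount seen against DMSO (−0.25, SE 0.046). The DUSP1 peak beyond the gene was not called here (0.38, SE 0.182, edgeR adjusted p = 0.0959).

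With the reads of all peaks of a gene summed, 7 of the 10 genes were called higher in H3K4me3 and JUND was called lower at 500 nM, where 20% of all genes with a peak were higher and 22.1% lower. EGR3 stood at 0.66 (SE 0.086) and FOSB at 0.21 (SE 0.038), lower than its start peak alone. DUSP1 was called on its sum of 2 peaks (log2 fold change 0.12, SE 0.043, edgeR adjusted p = 0.0264) though not at its start. That call was lost with DESeq2, without DMSO replicate 1, without 500 nM replicate 2 and with peaks within 1 kb only, and the call on the EGR1 sum was lost with DESeq2 and without DMSO replicate 1. The sums of JUNB and IER2 hold reads that count for HOOK2 and STX10 as well.

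For H3K27ac, 0 of the 19 peaks were called at 500 nM by edgeR, and 0 by DESeq2. Calls were rare throughout this mark, 0.692% of 54037 tested peaks higher and 0.231% lower. An unadjusted p under 0.05 was reached by 4 of the 19 peaks, at FOS, FOSB, EGR1 and EGR2, against 11.5% of all tested peaks. Both 500 nM libraries exceeded both DMSO libraries at 8 of the 19, where 22.4% of all peaks did so, and the 8 were the peaks of FOS, EGR1, EGR2, EGR3 (both), IER2, the JUNB start and the FOSB gene body. Both were below both DMSO libraries at 3 of the 19 (1 JUN and 2 JUNB peaks beside the genes), against 22.2% of all peaks.

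**Figure D5:**
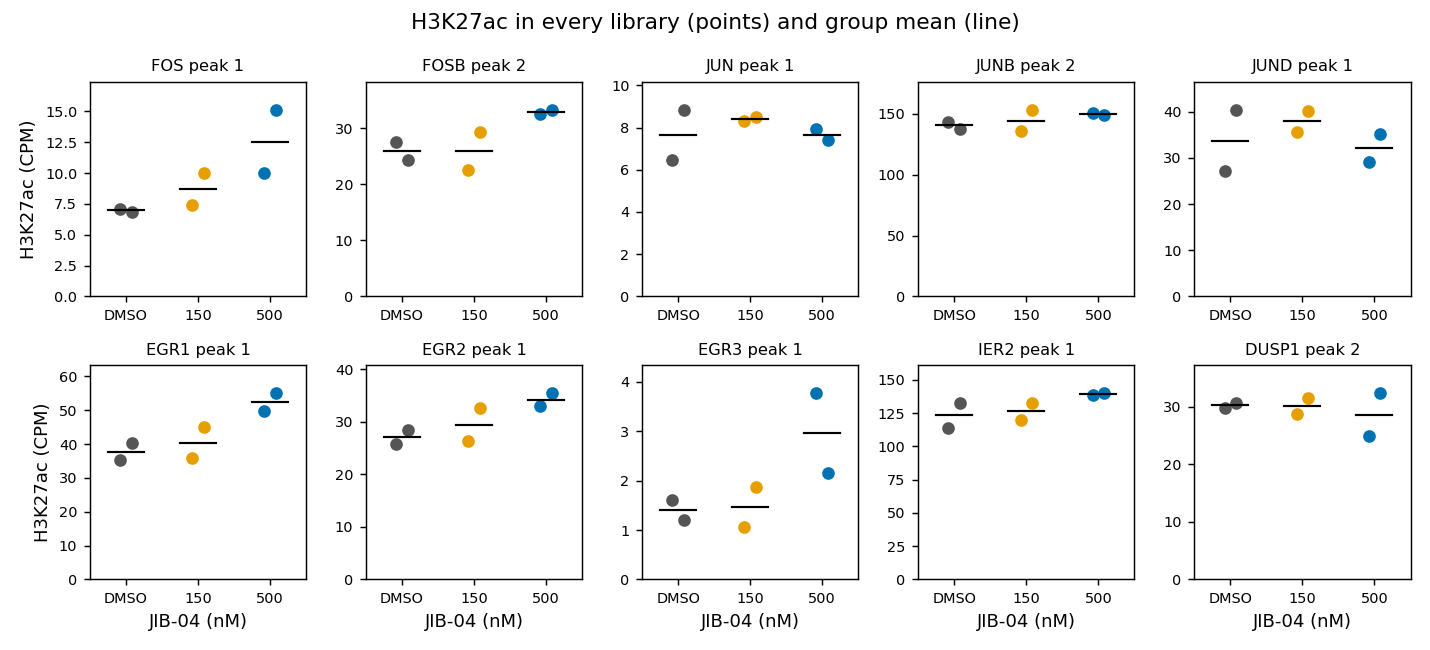
H3K27ac level (CPM, axis from 0) in every library by JIB-04 dose (nM) for the peak of each gene that overlaps the window around a start or, where there is none, the member peak with the highest DMSO level, with group means as lines. The 2 FOS libraries at 500 nM lie at 9.98 and 15.1 CPM, and the EGR1 libraries at 500 nM lie above the other 4.

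FOS and EGR1 came nearest to the threshold. The FOS peak (chr14:75278517-75279311) measured 7.13 and 6.82 CPM in DMSO, 7.44 and 9.99 at 150 nM, then 9.98 and 15.1 at 500 nM, from 31 to 77 reads. The 500 nM libraries were above DMSO but overlapped with 150 nM, and the log2 fold change of 0.84 (SE 0.249) had an edgeR adjusted p of 0.0974. The value depended on 1 library: without 500 nM replicate 2 it was 0.52 (adjusted p = 0.792), and without 500 nM replicate 1 it was 1.12 (adjusted p = 0.0495).

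The EGR1 peak (chr5:138463804-138466004) measured 35.2 and 40.3 CPM in DMSO, 35.9 and 45 at 150 nM, then 49.9 and 55 at 500 nM. Both 500 nM libraries were above the other 4. The log2 fold change was 0.47 (SE 0.133, edgeR adjusted p = 0.0762). Both genes passed under 4 other planned fits, in which calls over all H3K27ac peaks also rose, from 499 to between 1150 and 2105: with the replicate number as a block (adjusted p = 0.0248 for FOS and 0.00934 for EGR1), with the 4 libraries of the contrast alone (0.0106 and 0.0014), and without either of the 150 nM libraries. EGR1 was called under 5 of 15 alternatives, with an adjusted p of up to 0.671 in the others. With a term for the contig split named above, an alternative chosen after seeing the data, the adjusted p was 0.027 for FOS and 0.000888 for EGR1, and 1274 peaks were called in all.

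EGR2 (chr10:62816417-62818247) measured 25.7 and 28.5 CPM in DMSO, 26.3 and 32.6 at 150 nM, then 33 and 35.4 at 500 nM. Its 500 nM libraries were highest, by a log2 fold change of 0.33 (SE 0.15, edgeR adjusted p = 0.375). The FOSB gene-body peak (chr19:45468306-45470509) measured 27.6 and 24.3 CPM in DMSO, 22.5 and 29.4 at 150 nM, then 32.6 and 33.2 at 500 nM. Its value was close to that of EGR2 (0.35, SE 0.154, edgeR adjusted p = 0.357). The 2 EGR3 peaks had the largest fitted values, 1.08 (SE 0.576) and 1.00 (SE 0.6), on 20 and 11 reads and 16 and 11 reads at 500 nM against 5 to 7 in DMSO, and neither passed the test.

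The JUN family showed no common direction in H3K27ac. The JUNB start peak (chr19:12788033-12794183) measured 143 and 138 CPM in DMSO, 136 and 153 at 150 nM, then 151 and 149 at 500 nM, a log2 fold change of 0.09 (95% interval −0.09 to 0.27). The JUN peak whose end lies just inside the start measured 6.44 and 8.82 CPM in DMSO, 8.29 and 8.48 at 150 nM, then 7.91 and 7.43 at 500 nM, and its groups overlapped (0.00, 95% interval −0.51 to 0.5). The JUND gene-body peak measured 27.1 and 40.3 CPM in DMSO, 35.7 and 40.1 at 150 nM, then 29.2 and 35.2 at 500 nM. Its DMSO libraries were the farthest apart, and the log2 fold change of −0.08 had a 95% interval of −0.38 to 0.22, which includes the size of its H3K4me3 fall. The IER2 peak measured 114 and 133 CPM in DMSO, 120 and 133 at 150 nM, then 139 and 140 at 500 nM (log2 fold change 0.17, SE 0.097, edgeR adjusted p = 0.512). The DUSP1 start peak measured 29.7 and 30.7 CPM in DMSO, 28.7 and 31.5 at 150 nM, then 24.9 and 32.3 at 500 nM, with groups that overlapped (log2 fold change −0.08, 95% interval −0.38 to 0.22). The remaining 8 peaks lay beside the genes, between −0.78 at the smallest JUNB peak (SE 0.468) and 0.55 at a JUND flank (SE 0.564).

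At 150 nM none of the 19 H3K27ac peaks was called by edgeR or DESeq2, and edgeR called 0.00185% of all tested peaks. None had an unadjusted p under 0.05, against 3.94% of all tested peaks. Between the doses none was called either, where 1.09% of all tested peaks were called higher and 0.185% lower at 500 nM. An unadjusted p under 0.05 was reached by 3 of the 19 (FOS, FOSB gene body and EGR1), against 10.2% of all tested peaks. Summed by gene, no member passed for H3K27ac at 500 nM against DMSO by edgeR or DESeq2. Of all genes with a peak, edgeR called 1.38% higher and 0.4% lower. EGR1 was closest with an edgeR adjusted p of 0.0551. Over the 10 genes the summed changes of the 2 marks had the same sign in 8 and a Spearman correlation of 0.89. This is a description over 10 genes whose peaks overlap on the genome, from separate libraries of the same treatments. Among the 8, the H3K27ac sums of JUNB (0.003, SE 0.081) and JUND (−0.015, SE 0.137) changed by less than their SE. Neither the shared signs nor the correlation was taken over all genes.

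Other genes of the pathway, listed with earlier results of these data known, were counted by the same 5 kb rule. H3K4me3 of MAP kinase phosphatase genes, the relatives of DUSP1, rose at 8 of 11 tested peaks and fell at 1, with a median log2 fold change of 0.43. DUSP6, the phosphatase of ERK, had 21.7 and 20.8 CPM in DMSO against 57.6 and 55.6 at 500 nM at its only peak (1.41, SE 0.071, edgeR adjusted p = 1.64e-24). DUSP4 had the largest rise of this list (1.95, SE 0.427, edgeR adjusted p = 0.000178), and DUSP10 the only fall (−0.12, SE 0.038, edgeR adjusted p = 0.00827). DUSP6 was named after its value was seen, as were the second BATF3 peak, NAB1, NAB2 and the H3K4me3 peak of PPP1R15A below. For comparison, 20.7% of all tested peaks rose and 18.7% fell. This list and those below were not set beside peaks of like level, and the lowest abundance bin had a median log2 fold change of 0.44.

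The other AP-1 subunits rose at 6 of 16 H3K4me3 peaks and fell at 4, where 20.7% of all tested peaks rose and 18.7% fell. The median over the 16 was 0.02. BATF3, a dimer partner of JUN proteins in lymphocytes, rose from 2.04 and 1.96 CPM to 8.67 and 6.43 at 1 peak (log2 fold change 1.92, SE 0.236, edgeR adjusted p = 9.3e-10) and from 46.7 and 49.2 to 90.4 and 91 at another (0.92, SE 0.051). JDP2, a repressor of AP-1, had the largest fall of this list, from 32.4 and 30.8 CPM to 17.8 and 14 (−0.98, SE 0.093, edgeR adjusted p = 2.01e-13). BATF3 also held the only 2 H3K27ac peaks of this list that were called, out of 40 tested (1.03 and 1.39, edgeR adjusted p = 0.000464 and 5.25e-05). Of all tested H3K27ac peaks 0.692% were called higher.

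Among the EGR family and the EGR corepressors, EGR4 rose (1.00, SE 0.144, edgeR adjusted p = 6.36e-08) while the corepressor genes NAB1 (−0.06) and NAB2 (0.04) did not pass. The other early response genes rose at 14 of 39 tested H3K4me3 peaks and fell at 8, where 20.7% of all tested peaks rose and 18.7% fell. The median over the 39 was 0.15. The largest rise was at a peak of KLF2, a factor of resting lymphocytes, but on at most 1.36 CPM (1.73, SE 0.548, edgeR adjusted p = 0.00931), and the largest fall was at ZFP36L2, which binds AU-rich mRNA, from 314 and 327 CPM to 237 and 237 (−0.44, SE 0.03, edgeR adjusted p = 1e-18). PPP1R15A, a stress-induced phosphatase subunit, held the only called H3K27ac peak of this list, out of 61 tested (0.39, SE 0.101, edgeR adjusted p = 0.0386), and its H3K4me3 rose too (0.59, SE 0.045). The share called higher over all tested H3K27ac peaks was 0.692%.

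Upstream components are given beside the same background, 20.7% of all tested peaks higher and 18.7% lower. The serum response factor group rose at 1 of 12 H3K4me3 peaks and fell at 3, with a median of −0.09. ELK3, a partner of serum response factor, rose (0.93, SE 0.074, edgeR adjusted p = 3.38e-16), and a peak in MRTFA, a coactivator of it, fell most (−0.71, SE 0.115, edgeR adjusted p = 9.99e-07). The MAP kinases and their kinases rose at 3 of 18 peaks and fell at 7, with a median of −0.08. MAP2K7, a kinase of JNK, held the largest rise, on at most 3.23 CPM (2.29, SE 0.381, edgeR adjusted p = 1.53e-06), and MAP2K1, the ERK kinase MEK1, the largest fall (−0.30, SE 0.041, edgeR adjusted p = 2.57e-08). No H3K27ac peak was called by edgeR among 29 tested of the serum response factor group (6 with an unadjusted p under 0.05), 68 of the kinases (7), 14 of the phosphatases (3) and 6 of the EGR genes and corepressors (2). Of all tested H3K27ac peaks 11.5% had an unadjusted p under 0.05, 0.692% were called higher and 0.231% lower.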

How the data were processed

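The authors counted consensus peaks with featureCounts 2.0.1, per the file headers; strand was ignored, 1 read could add to several peaks, and a fraction of 0.2 of it had to overlap. The deposited counts are raw. Whether 1 count stands for a read or a pair is unclear, since the headers record a paired option and the labels single reads. Per the submitters' processing notes, the build was GRCh38 and Trim Galore 0.6.7, BWA 0.7.17-r1188, Picard 2.27.4, MACS2 2.2.7.1, deepTools 3.5.1 and edgeR 3.42.4 were used, with no role stated. Coordinates have 1 added to the deposited start. Positions and promoters come from RefSeq tables of GRCh38.p14, and the gene table holds no strand.

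Groups and doses come from the sample titles. All 6 libraries of a mark entered 1 fit in edgeR 4.0.16 (R 4.3.3): filterByExpr by group, TMM, glmQLFit, glmQLFTest, Benjamini-Hochberg over all tested peaks at 0.05. SE is the absolute log2 fold change over the root of F. CPM is per 1000000 reads in tested peaks, so a change common to all peaks is not measured. Gene sums used the library sizes of the peak fit. Alternatives were other scaling and filters, a replicate block, fewer libraries, DESeq2 1.42.0 and a 1 kb distance. The fit was tested on simulated counts.

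The members, lists and tests were chosen with earlier results of these data known. All 10 members were named, with values in every library for start peaks and called peaks; from each list the called peaks with the largest rise and fall were named; promoters printed are those of the 5 start peaks with the largest called change outside chromosome 8. Intervals are the log2 fold change and its SE under a normal approximation at 95%. No chance test or set test was made. A further marker gene is not reported here.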

Additional observations from a re-analysis of the deposited data

How the results depend on the processing

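Calls at single H3K27ac peaks depended on the fit. At 500 nM against DMSO the count of called member peaks went from 0 to 2 (FOS and EGR1) with the replicate block, with only the 4 libraries of the contrast and with the term for the contig split, and leaving out 1 library gave 0 to 2. Calls over all peaks rose as well, from 499 to 1150, 2105 and 1274 in these 3 fits, and ran from 117 to 1900 when 1 library was left out. Between the doses it went from 0 to 1 (EGR1) with the contig term, and leaving out 1 library gave 0 to 1. Summed by gene it went from 0 to 2 (FOS and EGR1) with the replicate block and to 4 (with EGR2 and IER2) with the contig term. The calls over all genes in these 2 fits are not given here, and those over all peaks rose in both, as named above. The H3K27ac value of JUN at 500 nM, −0.003 in the fit reported, was 0.015 with loess offsets, 0.002 with the replicate block, 0.003 with DESeq2, 0.122 with the contig term, and −0.207 to 0.255 when 1 library was left out. That of the DUSP1 start peak, −0.082, ran from −0.279 to 0.102 when 1 library was left out, the latter without 500 nM replicate 1. The cause was not tested. For H3K4me3, the counts of called members stayed within 1.5 times under every alternative, and the split of all peaks into higher and lower was 4215 and 3819 with TMM, 4767 and 2791 with total counts and 3564 and 3350 with loess offsets. At single peaks 321 values under alternatives kept their direction and side of the threshold, 17 gained a call, 9 lost one and 8 changed sign. The shared replicate numbers were not shown to pair libraries (correlations of deviations 0.005 to 0.049 for H3K4me3 and 0.003 to 0.133 for H3K27ac), so the block is an alternative only, and the calls it added are those named above. Depth was lower for H3K27ac than for H3K4me3, and its part in the missing calls was not tested. Without either 150 nM library, FOS and EGR1 passed for H3K27ac.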

Other observations

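Beyond 5 kb and up to 50 kb from the genes lay 39 tested H3K4me3 peaks, of which 14 were called higher at 500 nM and 1 lower. Their median log2 fold change was 0.14. Over all tested H3K4me3 peaks 20.7% were called higher and 18.7% lower. The 14 were low peaks, at most 36.1 CPM in any library. In the 3 lower abundance bins 26.1%, 34.1% and 29.1% of all tested peaks were called higher and 4.58%, 12.8% and 19.3% lower. The neighbouring peaks were not set beside peaks of like level. Both peaks near FOS rose, the nearer at LINC01220 (0.19, SE 0.077, edgeR adjusted p = 0.0453) and the other 19080 bp away in no gene (0.51, SE 0.122, edgeR adjusted p = 0.000518). Near FOSB 5 of 11 rose, 4 of them in the DNA repair gene ERCC1 and 1 in PPM1N. The largest of all was 10019 bp from JUND at LOC124904653, where H3K4me3 went from 7.51 and 11.2 CPM in DMSO to 21.9 and 22.1 at 500 nM (1.25, SE 0.127, edgeR adjusted p = 2.15e-12), opposite in sign to the JUND peak itself. Near JUNB 2 peaks inside HOOK2 rose (0.45, SE 0.098, and 0.40, SE 0.109), and the peak at RTBDN and its antisense gene fell (−0.28, SE 0.051, edgeR adjusted p = 9e-06). The neighbourhoods of EGR1 (2 of 3), EGR3 (1 of 2) and IER2 (1 of 5) also held peaks called higher. No H3K27ac peak among the 60 tested in these neighbourhoods was called by edgeR, and their median was 0.08. Over all tested H3K27ac peaks 0.692% were called higher and 0.231% lower. An unadjusted p under 0.05 was reached by 5 of the 60, against 11.5% of all tested H3K27ac peaks. The neighbours were not compared with those of other genes.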
